A study of Arabidopsis thaliana with 9 samples.

Results

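The plastid-encoded genes of Arabidopsis thaliana were taken as every gene of the deposited expression table whose identifier begins with ATCG, the prefix of the plastid genome. The rule used no measured value and found 100 genes of the 16383 in the table, beside 30 mitochondrion-encoded genes (prefix ATMG) and 16253 nuclear genes. Plastids keep a small genome of their own that codes for part of the photosynthetic complexes, for part of the plastid ribosome and for a bacterial-type RNA polymerase. The remaining subunits, the sigma factors that direct this polymerase to promoters, a phage-type polymerase and the light-harvesting proteins are coded in the nucleus and imported. In seedlings kept in the dark, plastids of the shoot are undifferentiated proplastids or etioplasts, and much of the nuclear photosynthesis program is held low until light arrives.

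RNA was sequenced from the apical hook, the bend below the cotyledons that protects the shoot tip of a dark-grown seedling. The plants came from dark growth at 22 °C and were 45 h of age, and each sample held about 50 hooks of about 2 mm from which the cotyledons had been cut off. The 3 genotypes were Col-0 (WT here), tmk1 (tmk1-1 in the labels), and the double mutant iaa32iaa34, whose alleles the labels do not give, with 3 biological libraries each. TMK1 is a receptor-like kinase of auxin signalling, and IAA32 and IAA34 are non-canonical members of the Aux/IAA repressor family. The title of the series names TMK1-mediated auxin signalling in differential growth, and each mutant was compared with WT and with the other mutant.

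The libraries held 10077093 to 13601488 reads by the step size of the values, of which 122743 to 234895 fell in plastid-encoded genes. Over the 100 genes the median was 190 to 471 reads in a library, and the lowest count was 9 to 22, so counting error is small for most of these genes. TMK1 itself was 441 ± 47.0 CPM (counts scaled to the library total, SD, n = 3) in WT and 33.7 ± 10.1 in the mutant tmk1, at a limma adjusted p of 9.04e-06. IAA32 was 49.8 ± 6.21 CPM in WT and 8.46 ± 2.01 in the double mutant, at a limma adjusted p of 2.23e-04. IAA34 was not analysed here. Correlations of log2(CPM + 1) over all genes were 0.964 to 0.988 between libraries of 1 genotype and 0.919 to 0.983 between genotypes, given as a description. For the plastid-encoded genes 1 library stood apart, WT replicate 3, so the main results against WT are also given without it.

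The identifiers of the plastid genes are not paired with gene symbols in the files, and 0 of the 100 matched a locus tag of the RefSeq annotation used here. Notes on nuclear relatives in that annotation name 6 of them, a ClpP protease subunit, a CemA-like protein, 3 ribosomal proteins and a protein called photosystem II protein G. The other 94 are given by identifier only and could not be grouped into photosystems, ATP synthase, polymerase or transfer RNAs. For scale, the RefSeq plastid genome carries 129 genes with 108 different symbols. Among its genes are 5 for photosystem I, 15 for photosystem II, 6 for the cytochrome b6f complex, 6 for ATP synthase, 12 for the NDH complex, 25 for ribosomal proteins, 4 for the RNA polymerase, 7 for ribosomal RNAs and 37 for transfer RNAs.

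Plastid-encoded transcripts took 1.05 to 2.05% of the reads of a library. Their summed level was 17357, 16351 and 10475 CPM in the 3 WT libraries. The sum was 17546, 18777 and 17270 CPM in tmk1, and 20503, 15823 and 18300 CPM in iaa32iaa34. WT replicate 3 was thus the lowest of the 9 libraries, and the other 8 libraries lay between 15823 and 20503 CPM with all 3 genotypes intermixed. In bulk tissue, fewer cells or plastids and less RNA in each cannot be told apart.

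The mean sum of the WT libraries was 14728 ± 3718 CPM, that of tmk1 17864 ± 803 and that of iaa32iaa34 18209 ± 2341 (SD, n = 3). The ratio of geometric means was 1.24 for tmk1 against WT (log2 difference 0.31, exact permutation test, two-sided, p = 0.2) and 1.26 for iaa32iaa34 against WT (0.33, exact p = 0.3). Between the mutants the log2 difference was -0.02 (exact p = 0.9). The smallest p that 3 against 3 libraries allow is 0.1, so none of these tests could have reached 0.05. Without WT replicate 3 the log2 differences from WT were 0.08 (exact p = 0.3) and 0.10 (exact p = 0.5). The WT libraries are common to both comparisons, so the differences of the mutants from WT are not independent of each other.

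**Figure D1:**
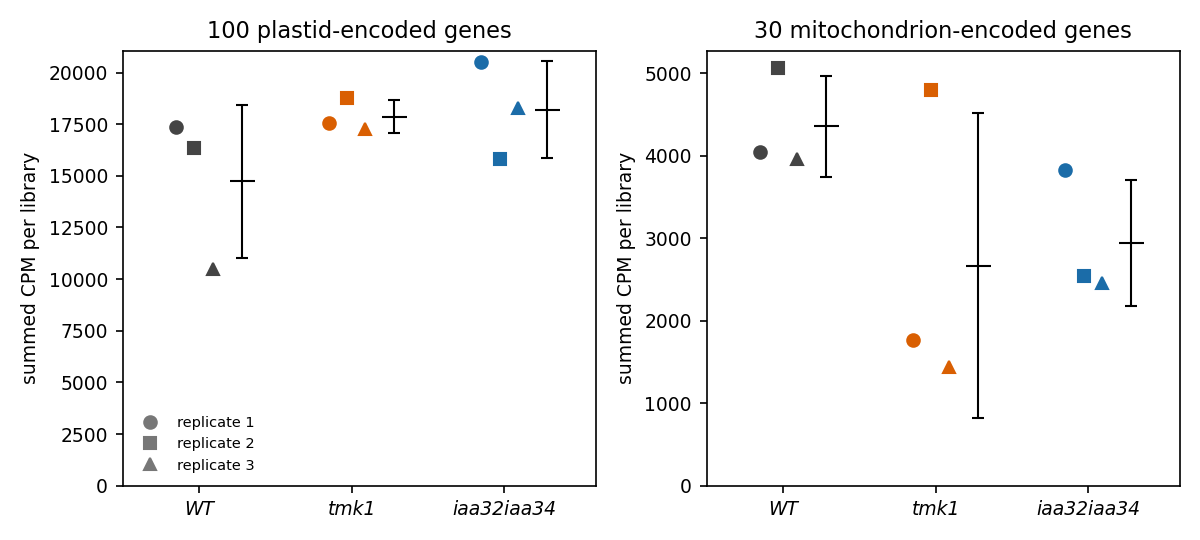
Summed CPM of the 100 plastid-encoded genes (left) and of the 30 mitochondrion-encoded genes (right) in each library, with the vertical axis from 0; symbols are the 3 replicates of each genotype, and the horizontal bar with whiskers is the mean ± SD. On the left WT replicate 3, at 10475 CPM, lies below the other 8 libraries, and on the right tmk1 replicates 1 and 3 lie lowest, at 1772 and 1437 CPM.

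The low plastid level of WT replicate 3 was spread over nearly all the genes rather than resting on a few. This library had the lowest value of the 3 WT libraries for 97 of the 100 genes and the highest for 0, whereas WT replicates 1 and 2 were highest for 53 and 47. Over all 9 libraries it held the lowest value of 84 genes. Its log2(CPM + 1) values lay below the mean of the other 2 WT libraries for 99 genes, with a median of -0.85 and a range of -1.47 to 0.07. The 3 most abundant plastid-encoded genes made up 41.4% of the plastid sum in this library and 35.0 to 39.6% in the other 8.

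The mutants' libraries differed among themselves gene by gene as well. In iaa32iaa34, replicate 1 was the highest of the 3 libraries for 70 genes and replicate 2 for 5, and replicate 1 lay above the mean of the other 2 for 83 genes (median 0.42, range -0.50 to 1.46 in log2). In tmk1 the highest value fell in replicate 1, 2 and 3 for 25, 51 and 24 genes. There tmk1 replicate 2 lay above the mean of the other 2 for 61 genes and below it for 39, over a range of -0.91 to 2.08. The genes thus spread in both directions in tmk1, while the sum kept between 17270 and 18777 CPM, and in WT nearly all of them lay to the same side.

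**Figure D2:**
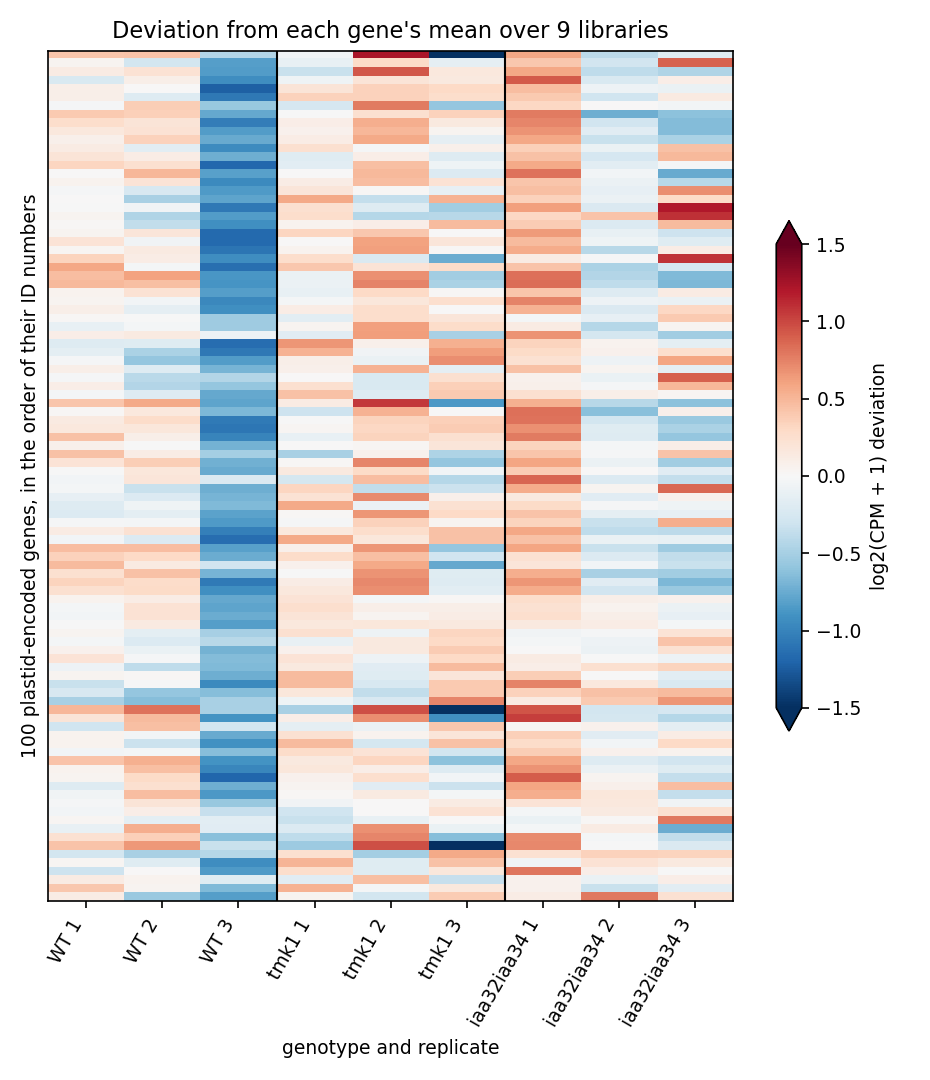
Deviation of each plastid-encoded gene from its own mean over the 9 libraries, in log2(CPM + 1), with 1 row per gene in the order of the identifiers and 1 column per library; red is above the gene's mean, blue below, and the scale ends at 1.5 in either direction. The column of WT replicate 3 is blue for nearly all genes, with a mean deviation of -0.77, and the column of iaa32iaa34 replicate 1 is the reddest, with a mean of 0.43.

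Per gene, the mean level over the 9 libraries ran from 1.71 to 2389 CPM, with a median of 33.6 against 20.01 for all genes of the table. Below 10 CPM lay 21 genes, 52 lay between 10 and 100, and 27 lay above 100, of which 5 exceeded 1000. The ratio of the highest to the lowest library was between 1.498 and 7.26 for a gene, with a median of 2.94. The narrowest gene was ATCG01120, at 61.5 to 92.2 CPM. The widest were ATCG00020, at 49.6 to 360 CPM, and ATCG00920, at 26.0 to 173 CPM, these 3 having been picked after their values were seen.

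The reads were concentrated on a few genes. ATCG00480 took 14.1% of the mean plastid level and ATCG01130 took 12.1%; adding ATCG01180, the cumulative share was 37.6%. These shares count reads per gene and not per length, since their lengths are not paired with the identifiers. ATCG00480 was at 2278, 2026 and 1361 CPM in WT, while tmk1 had 3161, 2035 and 3046 and iaa32iaa34 had 2739, 2470 and 2382. All 3 iaa32iaa34 libraries lay above the WT range and tmk1 overlapped it. Its fold change on the log2(CPM + 1) scale was 0.55 ± 0.26 (SE) in tmk1 and 0.45 ± 0.26 in iaa32iaa34, neither past the threshold (limma adjusted p of 0.2496 and 0.403). Without WT replicate 3 the changes were 0.33 and 0.23.

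ATCG01130 was nearly level across the libraries but for 1. It was at 2048, 1819 and 1804 CPM in the WT libraries, 1592, 1853 and 2018 in tmk1, and 1875, 2033 and 3461 in iaa32iaa34. The low plastid level of WT replicate 3 was hardly visible in this gene, and its highest value stood in iaa32iaa34 replicate 3. ATCG01180 was at 2113, 2313 and 1168 CPM in WT, while tmk1 had 1385, 2987 and 1161 and iaa32iaa34 had 2946, 1762 and 1395. Its spread within each genotype exceeded the differences between genotype means, which were 1865 ± 612, 1844 ± 996 and 2035 ± 811 CPM in that order. ATCG01210, picked after its values were seen, was highest in WT replicate 2, tmk1 replicate 2 and iaa32iaa34 replicate 1, as ATCG01180 was, at 960, 1123 and 567 CPM in the WT libraries, 490, 1392 and 225 in tmk1, and 1177, 710 and 615 in iaa32iaa34. Its share of the plastid sum ran from 1.30 to 7.41%.

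No plastid-encoded gene passed the threshold in any comparison (limma, Benjamini-Hochberg adjusted over all 16383 genes, 0.05). In tmk1 against WT 0 of 100 were called, where 0.317% of all genes were. With the replicate number as a term of the fit (the replicate block) 0 were called as well, where 1.97% of all genes were (323 in place of 52). In iaa32iaa34 against WT 0 were called beside 0.153% of all genes, and in tmk1 against iaa32iaa34 0 beside 0.0549%. At such a background a count of 0 among 100 genes says little. The smallest limma adjusted p of a plastid-encoded gene was 0.0879, 0.133 and 0.552 in these comparisons. The median standard error of a fold change was 0.28 for the plastid-encoded genes and 0.19 for all genes.

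At an unadjusted limma p under 0.05, 16 plastid-encoded genes were higher in tmk1 than in WT and 0 were lower, where 9.65% and 11.7% of all genes were. In iaa32iaa34 18 were higher and 0 lower, beside 6.17% and 10.4% of all genes. Between the mutants 0 were higher in tmk1 and 2 lower, beside 4.18% and 3.94%. The unadjusted counts against WT include WT replicate 3, the lowest of all libraries for 84 plastid-encoded genes, and are not given without it. When it was left out, the median log2 fold change of the plastid-encoded genes fell from 0.35 to 0.05 in tmk1. In iaa32iaa34 it fell from 0.30 to 0.02. How far the excess of higher genes rests on that library was not tested. The 3 tmk1 libraries all lay above the 3 WT libraries for 14 plastid-encoded genes (11.5% of all genes) and below them for 0 (18.9%). For iaa32iaa34 these counts were 11 (6.54%) and 0 (14.6%). The tmk1 libraries lay above all of iaa32iaa34 for 0 (7.1%) and below for 2 (6.16%).

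Point estimates leaned 1 way. The log2 fold change was above 0 for 87 of the 100 genes in tmk1 against WT and for 86 in iaa32iaa34 against WT, where 41.9% and 41.8% of all genes were above 0. The median was 0.35 in tmk1 (range -0.69 to 0.93) and 0.30 in iaa32iaa34 (range -0.30 to 1.03), beside -0.06 over all genes in both. Between tmk1 and iaa32iaa34 54 genes were above 0 (52.1% of all genes), with a median of 0.035 beside 0.013. The genes are read from the same libraries and are not replicates, so no test was made of these counts.

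Most of this lean was lost without WT replicate 3. Then 58 genes were above 0 and 42 below in tmk1 against WT, with a median of 0.05 (all genes -0.08). In iaa32iaa34 against WT 55 were above and 45 below, with a median of 0.02 (all genes -0.07). With WT replicate 1 or 2 left out in its place, 92 and 93 genes were above 0 in tmk1 and 94 and 96 in iaa32iaa34, with medians of 0.44 to 0.51. Leaving out iaa32iaa34 replicate 1 lowered the median of iaa32iaa34 against WT from 0.30 to 0.18, with 66 genes above 0.

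**Figure D3:**
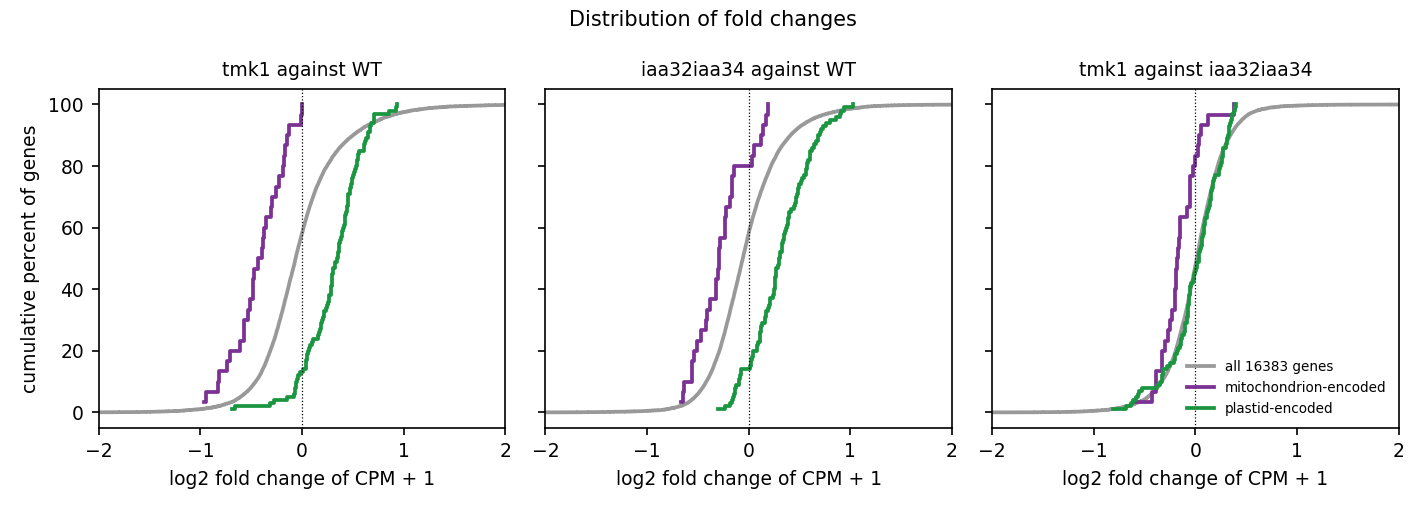
Cumulative percent of genes by log2 fold change of CPM + 1 in the 3 comparisons, for all 16383 genes (grey), the 30 mitochondrion-encoded genes (purple) and the 100 plastid-encoded genes (green). Against WT the green curve lies to the right of the grey one over most of its course, with medians of 0.35 and 0.30, and the purple curve to its left, with medians of -0.41 and -0.29; between the mutants the green and grey curves run close together.

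Of the genes with a name, ATCG00670 codes for the plastid ClpP, the proteolytic subunit of the Clp protease of the plastid stroma. It was at 101, 89.7 and 46.4 CPM in WT, while tmk1 had 154, 117 and 141 and iaa32iaa34 had 141, 97.0 and 95.9. The 3 tmk1 values lay above the 3 WT values, and the iaa32iaa34 values overlapped them. The log2 fold change in tmk1 was 0.86 ± 0.27 (limma adjusted p = 0.122) and, without WT replicate 3, 0.52 (limma adjusted p = 0.328). In iaa32iaa34 it was 0.54 ± 0.27 (limma adjusted p = 0.349), and 0.20 without that library (limma adjusted p = 0.664).

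ATCG00430 is named photosystem II reaction center protein G in the notes, by way of a nuclear gene for the NADH-ubiquinone oxidoreductase 20 kDa subunit. The name psbG is an old one, and the protein was later assigned to the plastid NDH complex, which passes electrons back to plastoquinone. It was at 167, 133 and 87.2 CPM in the WT libraries, 266, 178 and 286 in tmk1, and 226, 193 and 221 in iaa32iaa34, with all 6 mutant libraries above all 3 of WT. It had the smallest p of the plastid-encoded genes in tmk1. The log2 fold change there was 0.93 ± 0.24 (limma adjusted p = 0.0879, or 0.0648 with the replicate block), and 0.67 without WT replicate 3 (limma adjusted p = 0.274). In iaa32iaa34 the change was 0.77 ± 0.24 (limma adjusted p = 0.193), or 0.51 without that library, and between the mutants it was 0.16 ± 0.24.

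ATCG00420, which has no name in these sources, came next in tmk1. Its values were 58.1, 58.6 and 29.7 CPM in WT, while tmk1 had 106, 70.6 and 97.1 and iaa32iaa34 had 84.5, 69.4 and 60.1, again with the 6 mutant libraries above the 3 of WT. The log2 fold change in tmk1 was 0.93 ± 0.26 (limma adjusted p = 0.0999) and, without WT replicate 3, 0.61 (limma adjusted p = 0.280). A nuclear pseudogene of it is noted in the reference and is not in the table, and how reads shared by the copies were assigned is not known.

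The 3 ribosomal proteins, S11 of the small subunit (ATCG00750) and L20 and L2 of the large subunit (ATCG00660 and ATCG01310), did not pass the threshold in any comparison. S11 was at 115, 137 and 67.5 CPM in the WT libraries, 140, 125 and 125 in tmk1, and 138, 122 and 110 in iaa32iaa34, and WT replicate 3 alone lay apart. L20 had values of 18.4, 19.8 and 7.77 CPM in WT, while tmk1 had 18.9, 20.3 and 23.2 and iaa32iaa34 had 25.7, 12.7 and 12.5. Here too WT replicate 3 was the lowest library.

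L2 was at 16.8, 10.2 and 8.28 CPM in the WT libraries, 15.9, 12.6 and 20.5 in tmk1, and 16.8, 27.4 and 18.3 in iaa32iaa34. The groups overlapped, and WT replicate 3 was again the lowest library. The log2 fold changes in tmk1 were 0.34 ± 0.23 for S11, 0.52 ± 0.34 for L20 and 0.47 ± 0.27 for L2 (limma adjusted p of 0.405, 0.412 and 0.342). Without WT replicate 3 they were 0.050, 0.12 and 0.27. In iaa32iaa34 they were 0.27 ± 0.23, 0.16 ± 0.34 and 0.80 ± 0.27 (limma adjusted p of 0.572, 0.846 and 0.214), and for L2 the value without that library was 0.60. The RefSeq plastid genome holds 2 copies of the L2 gene, so the level of ATCG01310 depends on how reads shared by the copies were counted, and it is uncertain.

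ATCG00530, the CemA-like protein, belongs to a family named for an envelope membrane protein of the plastid that is linked to proton extrusion. It was at 27.5, 27.6 and 11.01 CPM in WT, while tmk1 had 24.9, 30.6 and 32.0 and iaa32iaa34 had 39.95, 21.5 and 17.3. The groups overlapped, and the log2 fold changes of 0.49 ± 0.36 and 0.26 ± 0.36 had limma adjusted p of 0.461 and 0.746. Without WT replicate 3 the change in tmk1 was 0.072. Without it the change in iaa32iaa34 was -0.15 for this gene, -0.24 for L20 and -0.028 for S11, the opposite sign in each.

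**Figure D4:**
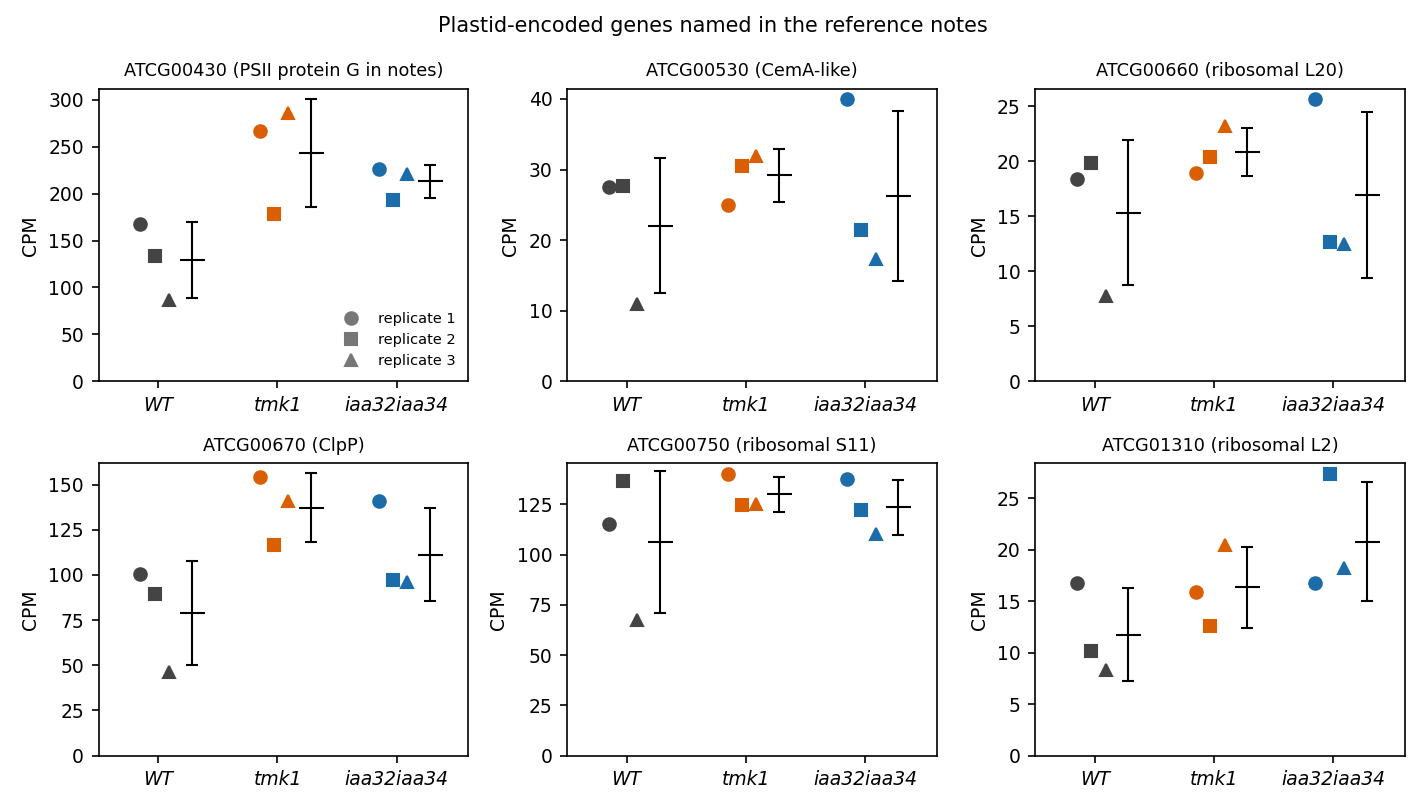
CPM of the 6 plastid-encoded genes that the reference notes name, 1 panel each with its own vertical axis from 0; symbols are replicates and the bar with whiskers is the mean ± SD of 3 libraries. In all 6 panels WT replicate 3 is the lowest of the 9 points, for example 46.4 CPM for ClpP.

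Levels of these genes can be compared only per length. Per kb of coding sequence, with lengths from RefSeq, ribosomal protein S11 (417 bases) averaged 288 CPM per kb over the 9 libraries and ClpP (591 bases) 185. L20 (354 bases) averaged 50.0 CPM per kb, CemA (690 bases) 37.4 and L2 (825 bases) 19.8. The ranges over libraries were 162 to 336 for S11 and 78.6 to 261 for ClpP, which overlap, while L20, CemA and L2 (21.9 to 72.5, 16.0 to 57.9 and 10.03 to 33.2) lay below both. The level of S11 per kb was thus above that of the ribosomal protein L20 in every library, although both belong to 1 ribosome. The value of L2 was lower too, but it is uncertain, since it depends on how reads shared by the 2 gene copies were counted.

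In iaa32iaa34 the smallest p belonged to ATCG00900, at 28.3, 22.2 and 21.2 CPM in the WT libraries, 38.1, 25.9 and 44.6 in tmk1, and 43.0, 46.0 and 47.1 in iaa32iaa34. The iaa32iaa34 libraries lay close together, well above WT, and WT replicate 3 was near the other WT libraries. The log2 fold change was 0.91 ± 0.19 (limma adjusted p = 0.133), and 0.83 without WT replicate 3 (limma adjusted p = 0.255). ATCG00905, picked after its values were seen, was at 26.8, 24.0 and 26.8 CPM in WT, while tmk1 had 36.2, 32.2 and 63.6 and iaa32iaa34 had 41.8, 50.3 and 60.7. The WT libraries lay close together here, and the log2 fold change in iaa32iaa34 was 0.94 ± 0.23 (limma adjusted p = 0.144).

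Between the mutants the smallest p belonged to ATCG00250, a gene of low level. It was at 3.82, 2.44 and 1.62 CPM in the WT libraries, 4.606, 2.481 and 2.4997 in tmk1, and 4.83, 5.32 and 9.00 in iaa32iaa34. All 3 iaa32iaa34 libraries lay above the other 6. The log2 difference of tmk1 from iaa32iaa34 was -0.81 ± 0.30 (limma adjusted p = 0.552). That of iaa32iaa34 from WT was 1.03 ± 0.30 (limma adjusted p = 0.171), the largest of the 100 genes in that comparison with all libraries. Without WT replicate 3 it was 0.82 (limma adjusted p = 0.319), below the 0.96 of ATCG00905.

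The mitochondrion-encoded genes, the other organelle genome in the same libraries, did not share the low level of WT replicate 3. Their sum was 4050, 5063 and 3964 CPM in WT, while tmk1 had 1772, 4802 and 1437 and iaa32iaa34 had 3826, 2546 and 2460. In tmk1, replicates 1 and 3 lay far below replicate 2, a split that the plastid sum did not show. The log2 difference of the sum was -0.91 for tmk1 (exact permutation p = 0.3) and -0.59 for iaa32iaa34 against WT (exact permutation p = 0.1), and 1 and 6 of the 30 genes had a fold change above 0. Without WT replicate 3 these differences were -0.98 (exact permutation p = 0.3) and -0.65 (exact permutation p = 0.2). The ratio of plastid to mitochondrial CPM was 4.29, 3.23 and 2.64 in the WT libraries, 9.90, 3.91 and 12.02 in those of tmk1, and 5.36, 6.21 and 7.44 in those of iaa32iaa34. All 3 iaa32iaa34 ratios lay above WT (log2 difference 0.92, exact permutation p = 0.1), and tmk1 overlapped WT (1.22, exact permutation p = 0.2). Whether the share of reads taken by mitochondrial transcripts bears on the plastid values was not tested.

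The nuclear genes that work on the plastid genome were counted from lists of their own. Of the 8 sigma factor and phage-type polymerase genes, 7 had a fold change above 0 in tmk1 against WT (median 0.74) and 5 in iaa32iaa34 (median 0.38). Of 12 genes for the nuclear subunits attached to the plastid RNA polymerase, 12 were above 0 in tmk1 (median 0.52) and 5 in iaa32iaa34 (median -0.02), and 12 in tmk1 against iaa32iaa34 (median 0.47). Of 10 measured genes for plastid RNA stability and processing, 9 were above 0 in each mutant (medians 0.66 and 0.38). All 23 measured nuclear genes for plastid ribosomal proteins were above 0 in both mutants against WT (medians 0.76 and 0.33) and in tmk1 against iaa32iaa34 (median 0.43). The median over all genes was -0.06, -0.06 and 0.01 in the 3 comparisons, and 0 genes of these lists passed the threshold. WT replicate 3 was the lowest library for each of these lists. Without it the medians in tmk1 were 0.56, 0.27, 0.48 and 0.55, in the order of the lists, and those in iaa32iaa34 were 0.24, -0.22, 0.08 and 0.12, with 19 of the 23 ribosomal protein genes above 0 in iaa32iaa34. With the replicate block, 2 sigma factor or polymerase genes and 1 ribosomal protein gene passed in tmk1 against WT (1.97% of all genes).

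In tmk1 the genes of smallest p in the first 3 of these lists had adjusted p above the threshold. SIG2, a sigma factor, was 36.3 ± 5.32 CPM in WT and 64.1 ± 5.61 CPM in the mutant (SD, n = 3, limma adjusted p = 0.0697, or 0.0462 with the replicate block). PTAC7, a subunit attached to the polymerase, was 27.0 ± 3.37 and 43.0 ± 2.68 CPM (limma adjusted p = 0.0877, or 0.0745 with the replicate block). MRL1, which stabilises the transcript of the Rubisco large subunit, was 43.8 ± 17.8 and 92.4 ± 7.50 CPM (limma adjusted p = 0.0945, or 0.0645 with the replicate block). In iaa32iaa34 the sigma factor of smallest p was SIGA, at 53.1 ± 15.8 CPM in WT and 108 ± 49.6 CPM in the double mutant (limma adjusted p = 0.218). The smallest limma adjusted p of the other 3 lists there lay between 0.199 and 0.230.

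The nuclear partners of the plastid-encoded photosynthetic subunits had larger fold changes than the plastid-encoded genes. All 34 measured genes for nuclear subunits of photosystem I, photosystem II, cytochrome b6f, ATP synthase, Rubisco and the NDH complex had fold changes above 0 in both mutants against WT, with medians of 1.15 and 0.98, and 0 passed the threshold. Without WT replicate 3 the medians were 0.89 and 0.75, with 34 and 33 genes above 0. With the replicate block 7 of the 34 passed in tmk1 against WT (1.97% of all genes) and 0 in iaa32iaa34 against WT (0.0671%). By complex the medians in tmk1 and iaa32iaa34 were 1.20 and 1.03 for photosystem I, 1.13 and 1.03 for photosystem II, 1.10 and 0.82 for b6f, ATP synthase and Rubisco, and 0.86 and 0.80 for NDH. PETC, the Rieske protein of the b6f complex, was 135 ± 29.8 CPM in WT and 296 ± 35.8 CPM in tmk1 (SD, n = 3, limma adjusted p = 0.0617, or 0.0389 with the replicate block). PSBQ-2, of the oxygen-evolving side of photosystem II, was 109 ± 26.0 and 223 ± 2.36 CPM (limma adjusted p = 0.0697, or 0.0512 with the replicate block).

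In each library the mean deviation of these 34 nuclear genes from their own 9-library means was set beside that of the 100 plastid-encoded genes. The nuclear genes were at -0.50, -0.37 and -1.19 in the WT libraries, at 0.48, 0.41 and 0.43 in those of tmk1, and at 0.65, -0.40 and 0.49 in those of iaa32iaa34. The plastid-encoded genes were at 0.08, 0.06 and -0.77 in the WT libraries, at 0.08, 0.24 and -0.02 in those of tmk1, and at 0.43, -0.10 and -0.01 in those of iaa32iaa34. WT replicate 3 was lowest in both. The library iaa32iaa34 replicate 2 was low for the nuclear genes, at -0.40. For the plastid-encoded ones it was at -0.10, the next lowest after WT replicate 3. The difference, nuclear minus plastid, was -0.58, -0.43 and -0.43 in the WT libraries, 0.39, 0.17 and 0.45 in those of tmk1, and 0.23, -0.30 and 0.50 in those of iaa32iaa34.

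Every mutant library thus had a larger nuclear-minus-plastid difference than every WT library. It exceeded WT by 0.82 in tmk1 and by 0.62 in iaa32iaa34 (log2, exact permutation p = 0.1 for each, the smallest that 3 against 3 allow), and tmk1 exceeded iaa32iaa34 by 0.20 (exact permutation p = 0.7). Unlike the plastid sum, it was as large without WT replicate 3, at 0.85 and 0.65. This measure was set up after the data had been seen.

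**Figure D5:**
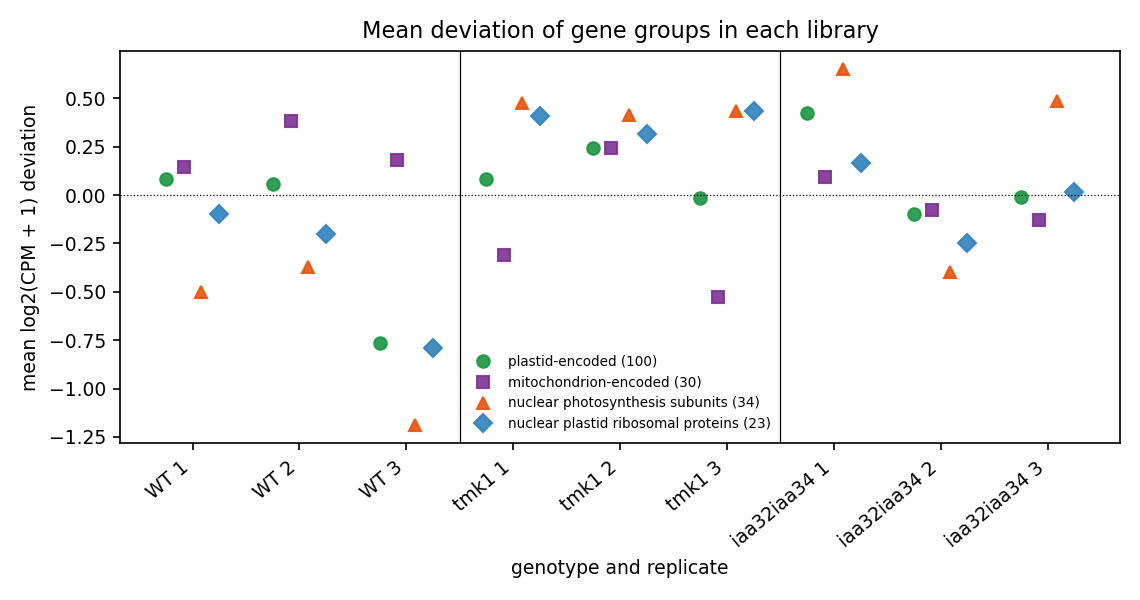
Mean deviation in log2(CPM + 1) from the 9-library mean of each gene, for 4 groups of genes in each library, with vertical lines between the genotypes. In WT replicate 3 the plastid-encoded genes (-0.77), the nuclear photosynthesis subunits (-1.19) and the nuclear plastid ribosomal proteins (-0.79) are all low while the mitochondrion-encoded genes (0.18) are not.

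Light-harvesting genes were taken as markers of cotyledon or leaf tissue. Of 16 such genes 15 were measured, and all 15 had fold changes above 0 in both mutants (medians 1.60 and 1.22, or 1.29 and 1.04 without WT replicate 3). None passed the threshold (limma), and 5 passed with the replicate block in tmk1 against WT (1.97% of all genes). Their summed level was 9043, 7233 and 4094 CPM in the WT libraries, 22309, 15655 and 17416 in tmk1, and 20654, 6696 and 18066 in iaa32iaa34. WT replicate 3 had the lowest sum, and iaa32iaa34 replicate 2 lay below 2 of the WT libraries. The cotyledons had been cut off with blades, and the part of residual cotyledon tissue in the plastid values was not tested. All 5 apical hook markers were measured, with summed levels of 830 to 906 CPM in WT, 788 to 862 in tmk1 and 829 to 885 in iaa32iaa34, and 2 of 5 had a fold change above 0 in each mutant, or 1 of 5 without WT replicate 3. Of 4 shoot meristem markers only KNAT1 was measured, at 148 ± 20.7, 132 ± 26.1 and 153 ± 4.88 CPM, and of 5 seed storage genes 0 were in the table.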

How the data were processed

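Expression values were deposited by the authors as CPM, that is, counts divided by the library total and scaled, with a column for each library and 0 columns left unmapped. The submitters' processing notes list HISAT and HTSeq. The genome build, the annotation, the strand setting, the treatment of reads with several matches and the RNA selection step are not stated in these sources, so levels of duplicated or overlapping plastid genes, and of transcripts without poly(A) tails, are uncertain. Libraries came from 1 µg of total RNA with a directional kit, per the labels' protocols, which call the samples biological triplicates.

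Values lay within 0.01 of whole multiples of 1 step per library, which gave the depths. No count model was fitted, since a separate automatic check did not find this step in every library. CPM values were taken as log2(CPM + 1), which understates changes of low genes. Genes needed a CPM of 1 or more in 3 or more libraries, and 0 were removed by this. The 9 libraries were fitted together by genotype (R 4.3.3, limma 3.58.1 with a mean-variance trend, two-sided), with Benjamini-Hochberg adjustment over the 16383 genes and a threshold of 0.05. The script was tested on simulated data. Single values per library were compared by exact permutation tests. Replicate numbers were taken to pair libraries where the deviations of every same-numbered pair correlated above 0.1, which held in tmk1 against WT (0.13 to 0.53) and not in iaa32iaa34 against WT (-0.40 to 0.46) or tmk1 against iaa32iaa34 (-0.14 to 0.36). The pairing is read from the data and not from the labels. Errors of CPM are SDs of 3 libraries and errors of fold changes are standard errors of the model.

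Genes named were, in each class that names allowed, the 3 of highest mean CPM and the 1 of smallest p per comparison, and for each nuclear list the 1 of smallest p. A gene that this rule names is not reported here. Names came from notes in the RefSeq annotation. The members and all lists were chosen with earlier results of these data known. Other pseudocounts, scalings, filters and sets of libraries were tried.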

Additional observations from a re-analysis of the deposited data

How the results depend on the processing

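In all 3 comparisons, 0 plastid-encoded genes passed the threshold under every alternative that was run (limma, 2 other pseudocounts, 3 other scalings, 2 other filters, the replicate block, only the 6 libraries compared, and each of the 9 libraries left out). The median fold changes moved by less than 1 SD of the replicates under every alternative. So did the plastid sum, run under the 3 scalings and with each library left out. The ratio to mitochondrial CPM, run only with each library left out, did too. The nuclear-minus-plastid difference did so under the 2 pseudocounts and with each library left out. The replicate block and the fit of only 6 libraries leave the medians unchanged by definition. Leaving out a library of the genotype not compared leaves the medians, sums, ratios and differences unchanged too. The run with no filter was the same as the main one, since the filter removed 0 genes. Against WT the SD of the replicates includes WT replicate 3, so it cannot judge its removal. Without that library the median of tmk1 against WT went from 0.35 to 0.05, and the SD from 0.36 to 0.058. In iaa32iaa34 against WT the median went from 0.30 to 0.02, and the SD from 0.41 to 0.20. Counts over the whole table moved more. For tmk1 against WT, 52 genes became 31 with a pseudocount of 0.25, 32 with trimmed mean of M-values scaling, 31 with median-of-ratios scaling, 18 at a mean CPM of at least 5, 620 with only the 6 libraries, and 6 to 704 with 1 library left out. For iaa32iaa34 against WT, 25 became 10 at a mean CPM of at least 5, 12 with only the 6 libraries, and 5 to 645 with 1 left out. For tmk1 against iaa32iaa34, 9 became 3 with only the 6 libraries and 3 to 8 with 1 left out. The cause was not tested. Among 45 gene results under 809 alternative values, 15 changed sign and 33 came to pass the threshold, all 33 of nuclear genes. None of the 45 passed it in the main fit, so none could cease to.

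A limma fit with the replicate block called 323, 11 and 10 genes in the 3 comparisons, against 52, 25 and 9. The numbers met the bar for pairing in tmk1 against WT only, and elsewhere libraries share only a number. The block was fitted on all 9 libraries, those of iaa32iaa34 among them. The deviations of tmk1 replicate 2 correlated more with WT replicate 3 (0.30) than with WT replicate 2 (0.13). Meeting the bar thus does not establish that libraries of 1 number were paired, and calls that need the block are uncertain.

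The change of ATCG01130 in tmk1 was 0.0068 with median-of-ratios scaling and -0.14 to 0.035 with 1 library left out, and that of ATCG01180 ran from -0.50 to 0.19. In iaa32iaa34, leaving out 1 library gave -0.19 to 0.35 for ATCG01180, -0.24 to 0.39 for ATCG00660, -0.15 to 0.50 for ATCG00530, -0.028 to 0.47 for ATCG00750 and -0.053 to 0.15 for KNAT1 (AT4G08150). A count test was not run, since a separate automatic check did not find the step of the values in every library. A sum over protein-coding genes only was not run, since the identifiers could not be sorted by type. Counts of 9 to 22 reads limit the genes of lowest level.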

Other observations

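Plastid-encoded genes with neighbouring identifiers varied more alike than other pairs. Deviations from the genotype mean were correlated over the 9 libraries, as a description with no test, since all pairs share libraries and depth. The median Pearson r was 0.74 over the 99 pairs of adjacent identifiers and 0.59 over all 4950 pairs. With the mean deviation of each library over the plastid-encoded genes removed first, it was 0.37 for adjacent identifiers and -0.03 for all pairs. Whether adjacent identifiers are adjacent genes of 1 transcript could not be looked up in the sources used here.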
